A study of Homo sapiens with 14 samples.

Results

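The messages described here encode the nuclear-encoded subunits of the mitochondrial respiratory chain (complexes I to IV) and of ATP synthase (complex V). They were chosen by gene symbol, from the naming pattern of each family, among the 19440 symbols counted. The pattern matched 87 symbols, and 77 of them had at least 20 counts in total, the minimum for analysis. All 77 were found in each of 14 libraries and passed the filter on low counts, which kept 9458 genes.

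Ribosome footprints, the stretches of message that a translating ribosome shields from RNase, were counted per gene in Flp-In T-REx 293 cells, a line derived from HEK293 human embryonic kidney cells. The EMC (ER membrane protein complex) helps to insert membrane proteins at the endoplasmic reticulum (ER), and each line expressed, from a doxycycline-inducible transgene, 1 of its subunits with a 3Flag tag. The tagged subunit was EMC6 in cells whose own EMC6 gene was knocked out, EMC7 in the next line and EMC10 in the last; for EMC7 and EMC10 no knockout is named. All lines received 0.5 to 1.0 ng/mL doxycycline for 72 h. Microsomes were treated with micrococcal nuclease and solubilized; the material bound to Flag beads is the IP and the solubilized material is the Input. There were 2 IP and 2 Input libraries for EMC6, 2 and 2 for EMC7, and 3 and 3 for EMC10. No IP from untagged cells is among them, so what binds the beads without the bait was not measured.

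Complex I passes electrons from NADH to ubiquinone, complex II does so from succinate, complex III hands them to cytochrome c, and complex IV to oxygen. Complexes I, III and IV move protons across the inner mitochondrial membrane, and ATP synthase uses the gradient to make ATP. Nuclear genes encode most subunits; cytosolic ribosomes make them and the mitochondrion then imports them, some while they are being translated. The subunits encoded on mitochondrial DNA were not analysed here.

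Libraries held 515302 to 2248591 gene counts in IPs, with both EMC6 IPs the shallowest (at most 960279), and 1692490 to 3395114 in Inputs. The chosen messages held 3883 to 9197 counts per IP and 19566 to 30851 per Input. In the Inputs the HEK293 markers VIM and CDH2 had at least 2486 and 1095 counts, whereas NEFM had at most 1 and PAX2 at most 9. Of markers of other cell types, PTPRC, ALB, INS and MYH6 had 0 counts in all Inputs, HBB at most 3 and CD3E at most 1. Each bait's own message was higher in its own IP than in its Input, by log2 7.54 (EMC6), 5.71 (EMC7) and 7.31 (EMC10).

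Counts were scaled by TMM, which sets the bulk of genes near 0, and tested with edgeR's quasi-likelihood test over all 9458 genes; "passed" means a Benjamini-Hochberg adjusted p under 0.05. Values are TMM-normalised CPM, a count scaled to a common library size, means ± SD between libraries, or log2 fold changes of IP over Input ± SE. The labels do not say that replicates came from separate cultures, so the p-values measure only the spread between these libraries, which may be technical. The scaling sets where 0 lies. Averaged over the 3 lines, the median gene stood at -0.19 with TMM, at -0.09 with DESeq2 size factors, at -0.69 when scaled on ER luminal messages and at -1.13 with library size alone. List medians are therefore given relative to that of all genes.

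As a group, the respiratory chain and ATP synthase messages lay in the middle of all messages, and a few stood apart from it. NDUFA9, an accessory subunit of complex I, rose about 2.46-fold over the mean of the 3 lines. COX4I1, a subunit of complex IV, rose 1.42-fold. ATP5F1A and ATP5F1C, the α and γ subunits of the ATP synthase head, fell with every bait. Over the mean of the 3 lines 6 of 77 members were higher in IP and 25 were lower, against 23.7% higher and 26.9% lower of all genes. The 6 make up 7.79% of members and the 25 make up 32.5%. The split of calls depended on the scaling: it was 9 higher and 13 lower with DESeq2 size factors, 1 and 67 scaled on ER luminal messages, and 1 and 76 with library size alone. The same scalings called 25.2% of all genes higher and 19.9% lower, 16.9% and 60.8%, and 12% and 77%.

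The median of the 77 members minus that of all genes was 0.02 over the mean of the 3 lines. By line it was 0.00165 for EMC6 (with the sign turned when scaled on ER luminal messages), -0.03 for EMC7 and -0.03 for EMC10. Taken for each pair of an IP and the Input it was made from, the difference was -0.0555 ± 0.0370 (SD, n = 7 pairs) and lay below 0 in 7 of 7 pairs, a sign that the fit shared for EMC7 and EMC10 but not for EMC6 or the mean. Members also kept close together, but genes were not matched for level and every member had at least 581 counts in total. The part of level in this closeness was not tested. Over the mean of the 3 lines 89.6% of members lay within 0.5 log2 units of the median of all genes, against 59.8% of all genes, and the SD of the log2 changes was 0.33 for members and 0.963 for all genes.

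**Figure D1:**
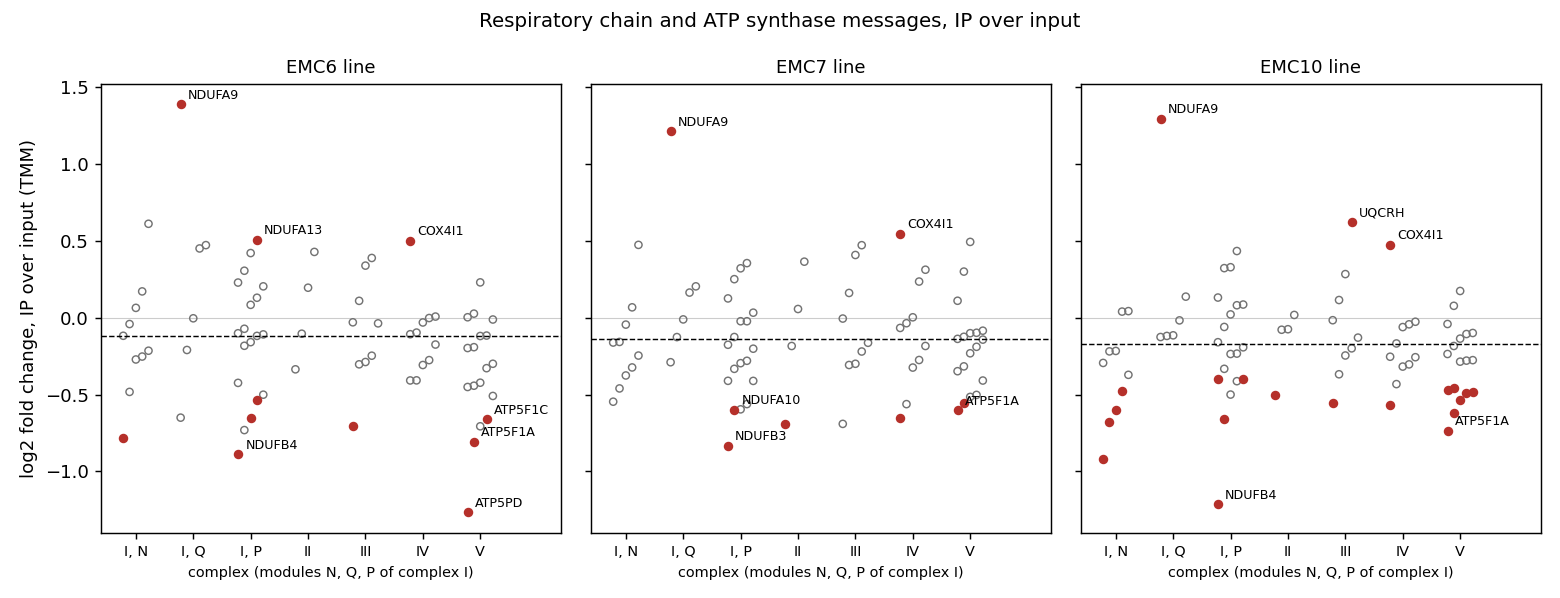
Log2 fold change of IP over Input (TMM scaling, vertical axis) for the 77 members by complex, with complex I split into its N, Q and P modules, in the EMC6, EMC7 and EMC10 lines. Filled points passed the test at an adjusted p under 0.05, open points did not, and the dashed line is the median of all 9458 genes; NDUFA9 stands highest in each line, at 1.39, 1.21 and 1.29.

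By line, 3 members were higher and 8 lower with EMC6, against 17.6% and 9.27% of all genes. With EMC7 2 were higher and 6 lower, against 20.4% and 9.68% of all genes. With EMC10, the line with 3 replicates, 3 were higher and 18 lower, against 19.9% and 13.9% of all genes. When IP and Input were paired in a replicate block, 5 were higher and 11 lower with EMC6, 5 and 15 with EMC7, and 5 and 25 with EMC10. The blocked fit called 19.7% of all genes higher and 13.3% lower with EMC6, 22.1% and 15.3% with EMC7, and 21.6% and 18.9% with EMC10. It kept all 11, 8 and 21 members called without it. For NDUFA9 with EMC6 its SE was 0.119, against 0.187 without the block. Deviations of same-numbered libraries correlated only at 0.239 (EMC6), 0.0673 (EMC7) and 0.0302 to 0.0882 (EMC10). The blocked fit also estimates a level for each pair, which leaves less to estimate the spread from. Whether its added calls rest on the pairing or on that estimate was not tested. Across the lines, 27 members passed in at least 1 line, 4 of them higher and 23 lower, none in opposite directions, and 50 passed in no line.

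Single libraries moved these counts. With EMC6 the number higher was 5 without IP replicate 1 and 1 without IP replicate 2; the number lower was 5 without IP replicate 1, 3 without IP replicate 2 and 3 without Input replicate 1. With EMC7 the number higher was 1 without IP replicate 1, Input replicate 1 or Input replicate 2. The number lower was 2 without IP replicate 1 or 2, and 10 without EMC6 Input replicate 2. With EMC10 the number lower was 9, 10 and 8 without IP replicates 1, 2 and 3. It was 9 and 11 without Input replicates 1 and 2. Of all genes 10.7%, 10%, 9.06%, 10.1% and 11.7% were lower with EMC10, in that order, against 13.9% with all libraries. In each of these settings by line, the share of all genes that passed moved the same way as the count of members. Of the 31 calls over the mean of the 3 lines, 4 of the 6 higher and 13 of the 25 lower held without each of the 14 libraries in turn, and the same 17 held with DESeq2 size factors and with the DESeq2 test. The 4 are NDUFA9, COX4I1, NDUFA13 and CYC1. The other 2 higher, NDUFA1 and NDUFB11, also held with DESeq2 size factors and with the DESeq2 test. The 13 are NDUFV2, NDUFS1, NDUFB4, NDUFA8, SDHB, UQCRFS1, COX7B, COX6C, ATP5F1A, ATP5F1B, ATP5F1C, ATP5PD and ATP5PO. Every library took at least 1 of the other 14 calls when left out, EMC6 IP replicate 2 the most (11 calls).

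Without a test, the libraries of a line can be set side by side. In the EMC6 line both IPs lay above both Inputs for 12 members and below them for 22, against 25.1% and 30.4% of all genes. In the EMC7 line this held for 11 and 34 members, against 29.1% and 36.7% of all genes. In the EMC10 line all IPs lay above all Inputs for 5 members and below them for 33, against 23% and 26.9% of all genes. Counted over the 7 pairs, 9 members exceeded the all-gene median in every pair, which is 11.7% of members against 23.1% of all genes. They are NDUFA9, NDUFA13, NDUFA1, NDUFB11, NDUFC2, NDUFS8, CYC1, UQCRQ and COX4I1. Another 14 members, 18.2% against 14.2% of all genes, lay below it in every pair.

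Complex I is built from an N module that oxidises NADH, a Q module that reduces ubiquinone and a P module in the membrane that pumps protons. Of its 35 tested members 4 were higher and 12 lower over the mean of the 3 lines, which is 11.4% and 34.3%, against 23.7% and 26.9% of all genes. Those lower were 4 of 10 in the N module and 8 of 19 in the P module, and those higher were 1 of 6 in the Q module and 3 of 19 in the P module. The median of the N module lay below that of all genes in 7 of 7 pairs, by -0.145 ± 0.0889 on average (SD). In the fit the difference was -0.04 when the lines were averaged, -0.05 with EMC6, -0.07 with EMC7 and -0.16 with EMC10. The Q module lay above it in 6 of 7 pairs, at 0.192 ± 0.174 (SD), and at 0.28 over the mean of the lines in the fit. This module has only 6 tested members, and its 1 call is NDUFA9, named in the choice of members with its change known.

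NDUFA9 belongs to the Q module, where it binds a nucleotide cofactor near the junction with the membrane arm. Its gene lies on chromosome 12 from 4649114 to 4694317 on the plus strand (GRCh38.p14), and no other counted gene overlaps it. NDUFA9 had 310.3 and 253 CPM in EMC6 IPs, against 121.9 and 91.7 CPM in EMC6 Inputs. It had 395.5 and 404.2 CPM in EMC7 IPs, against 180.6 and 163.8 CPM in EMC7 Inputs. It had 398.7, 351.2 and 412.7 CPM in EMC10 IPs, against 149.5, 155.4 and 168.8 CPM in EMC10 Inputs. Every IP lay above every Input of all lines, with no overlap. The log2 change was 1.39 ± 0.19 with EMC6 (adjusted p = 1.57e-07), 1.21 ± 0.17 with EMC7 (adjusted p = 4.42e-07) and 1.29 ± 0.14 with EMC10 (adjusted p = 1.72e-09).

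Over the mean of the 3 lines NDUFA9 changed by 1.30 ± 0.10 (adjusted p = 4.32e-14), higher in 7 of 7 pairs, where the log2 ratio ran from 1.13 to 1.46. NDUFA9 was named in the choice of members with its change known, so its place at the top is a description. It stood at the 88.2 percentile of all genes in log2 change. The next member, COX4I1, stood at the 77.2 percentile. NDUFA9 passed over the mean of the 3 lines under each scaling tried, at 0.35 with library size alone and 0.79 scaled on ER luminal messages. With library size alone it did not pass with EMC7 (0.20, adjusted p = 0.284) or EMC10 (0.17, adjusted p = 0.231).

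Across the 14 libraries, the genes whose log2 CPM followed NDUFA9 most closely were ALG11 (Pearson r = 0.990), POR (0.989), MFSD1 (0.988), SLC5A6 (0.988) and TMEM104 (0.987). ALG11 is a mannosyltransferase of the ER membrane and POR is the ER-anchored cytochrome P450 reductase. MFSD1 and SLC5A6 are multi-pass transporters. These r values rest on the split into IP and Input, which the libraries share, and the 5 genes changed more than NDUFA9 did, by 2.11 to 3.20. Among the members the closest was COX4I1 (r = 0.947), followed by CYC1 (0.691).

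**Figure D2:**
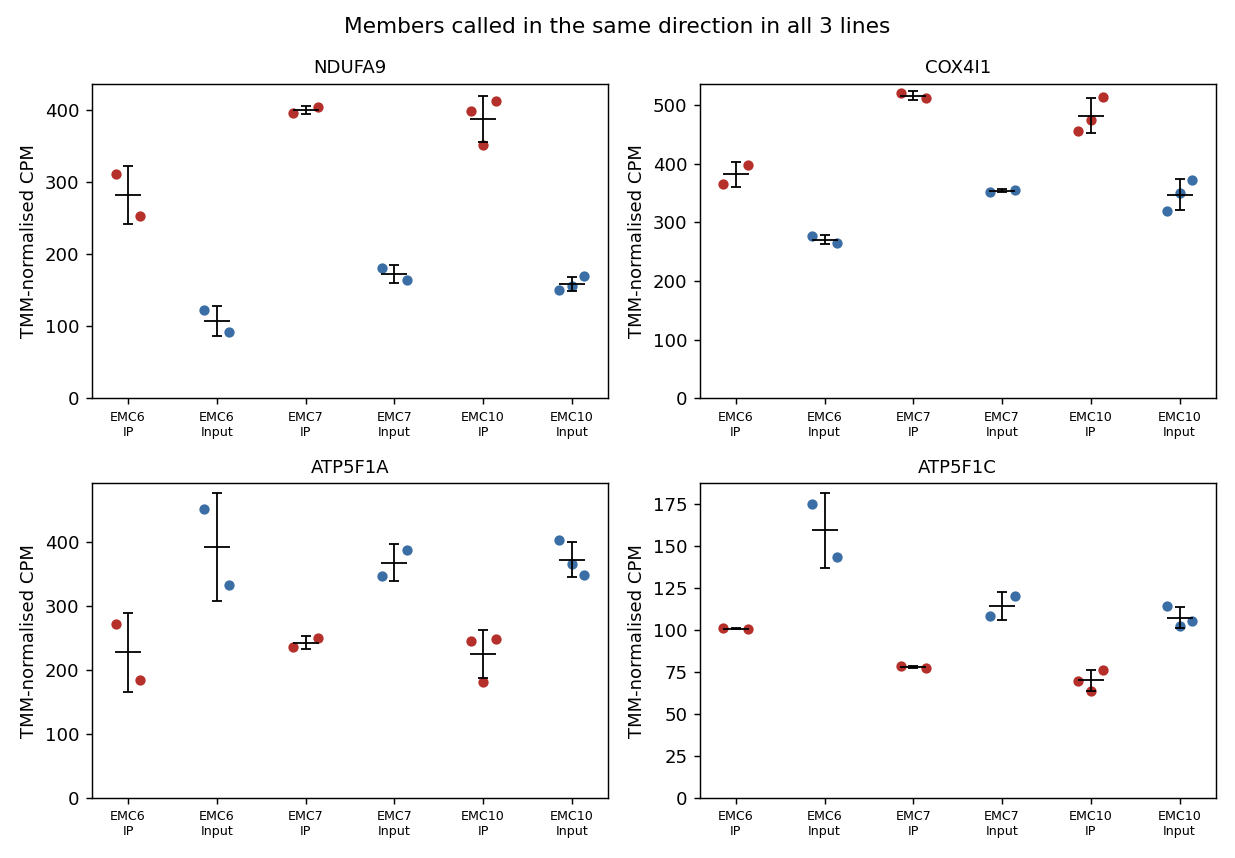
TMM-normalised CPM in every library for the 4 members that passed in the same direction in all 3 lines, with points for libraries and bars for the mean ± SD, IP left of Input in each line. NDUFA9 and COX4I1 lie higher in IPs, and ATP5F1A and ATP5F1C lie lower in IPs, with no overlap within any line.

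In the P module NDUFA13, an accessory subunit with a membrane helix, was higher in EMC6 IPs. NDUFA13 had 282.3 and 326.4 CPM in EMC6 IPs, against 202.2 and 227.5 CPM in EMC6 Inputs. It had 195.6 and 182.8 CPM in EMC7 IPs against 153.8 and 142.2 CPM in Inputs, and 155.4 to 186.3 CPM in EMC10 IPs against 134.2 to 142.7 CPM in Inputs. The IPs lay above the Inputs within each line. NDUFA13 changed by 0.51 ± 0.17 with EMC6 (adjusted p = 0.0249), 0.36 with EMC7 (adjusted p = 0.121), 0.32 with EMC10 (adjusted p = 0.0784) and 0.40 ± 0.09 over the mean (adjusted p = 0.000574). The EMC6 call was lost without EMC6 IP replicate 2 (adjusted p = 0.287) or EMC6 Input replicate 1 (adjusted p = 0.127). In the blocked fit NDUFA13 passed with EMC7 (0.35, adjusted p = 0.00473) and EMC10 (0.32, adjusted p = 0.00231) too. The mean change was -0.55 with library size alone and -0.11 scaled on ER luminal messages.

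NDUFA1 and NDUFB11, small single-pass subunits of the membrane arm, were also higher over the mean, by 0.27 ± 0.11 (adjusted p = 0.0359) and 0.27 ± 0.09 (adjusted p = 0.0155). Neither passed in a single line without the replicate block. In the blocked fit NDUFB11 passed with EMC6 (0.43, adjusted p = 0.000539) and EMC7 (0.33, adjusted p = 0.00149), and NDUFA1 with EMC10 (0.32, adjusted p = 0.00843). Both turned negative with library size alone (-0.68 and -0.68) and scaled on ER luminal messages (-0.23 and -0.23). NDUFA1 no longer passed without any of 8 libraries and NDUFB11 without any of 3. NDUFB11 overlaps RBM10, so reads may be shared between them where strand was not used, and it had the most counts among complex I members.

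NDUFB4, an accessory subunit of the membrane arm, was the lowest member over the mean of the lines and with EMC10. ATP5PD was lower with EMC6, and NDUFB3, another membrane-arm subunit, was the lowest with EMC7 (-0.83). NDUFB4 had 28.04 and 16.43 CPM in EMC6 IPs, against 37.97 and 39.69 CPM in Inputs. It had 19.41 and 22.98 CPM in EMC7 IPs, against 32.11 and 29.6 CPM in Inputs, and 18.07, 10.75 and 13.38 CPM in EMC10 IPs, against 29.67, 32.1 and 34.29 CPM in Inputs. Every IP lay below the Inputs of its line. These IP values rest on only 12 to 27 counts, and 12 pseudogenes carry its name. NDUFB4 changed by -0.89 ± 0.29 with EMC6 (adjusted p = 0.0211), -0.56 ± 0.26 with EMC7 (adjusted p = 0.0994) and -1.21 ± 0.24 with EMC10 (adjusted p = 8.67e-05), and by -0.89 ± 0.15 over the mean. The EMC6 call was lost without EMC6 IP replicate 2 (-0.48, adjusted p = 0.510), without EMC6 Input replicate 2 (adjusted p = 0.0762) and with DESeq2 size factors (adjusted p = 0.0541).

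NDUFV2, an iron-sulfur subunit of the N module, fell by 0.67 on the log2 scale over the mean (SE 0.15, adjusted p = 0.000226). NDUFS1, the large iron-sulfur subunit of that module, fell by 0.40 (adjusted p = 0.00143). NDUFA8, an accessory subunit on the intermembrane space side, fell by 0.66 (adjusted p = 0.00145). The other 8 complex I members that were lower over the mean lay between -0.47 and -0.27, and each was lost without at least 1 library.

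Complex II is the only one of the chain with no subunit encoded on mitochondrial DNA, and it is also an enzyme of the TCA cycle. Of its 4 members 1 was lower (25%, against 26.9% of all genes) and the others did not pass. SDHB, the iron-sulfur subunit, had 29.91 and 38.34 CPM in EMC6 IPs against 44.48 and 43.8 CPM in Inputs. It had 25.17 and 33.43 CPM in EMC7 IPs against 48.17 and 44.72 CPM in Inputs, and 28.67 to 40.13 CPM in EMC10 IPs against 45.95 to 49.82 CPM in Inputs. The IPs lay below the Inputs in each line. SDHB changed by -0.51 ± 0.13 over the mean (adjusted p = 0.00106). The flavoprotein SDHA, the member of this complex with the most counts, was at 0.06 ± 0.10 (adjusted p = 0.653). The membrane anchor SDHD was the highest of the 4 at 0.09 ± 0.13 (adjusted p = 0.585).

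In complex III 1 member was higher and 3 were lower of 9, or 11.1% and 33.3%, against 23.7% and 26.9% of all genes. CYC1, cytochrome c1, which carries electrons to cytochrome c, had 91.61 and 98.58 CPM in EMC6 IPs against 73.05 and 78.02 CPM in Inputs. It had 86.29 and 96.1 CPM in EMC7 IPs against 66.55 and 70.46 CPM in Inputs, and 80.25 to 92.74 CPM in EMC10 IPs against 65.61 to 71.79 CPM in Inputs. The IPs lay above the Inputs in each line. CYC1 passed over the mean (0.34 ± 0.10, adjusted p = 0.00499) and in no single line (0.34, 0.41 and 0.28 with EMC6, EMC7 and EMC10). With EMC7 it passed in the blocked fit (0.41, adjusted p = 0.0172). Its mean change was -0.61 with library size alone and -0.16 scaled on ER luminal messages.

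UQCRH, the hinge protein that helps cytochrome c1 dock cytochrome c, was higher with EMC10 alone among the lines tested. It had 28.91, 43.9 and 33.44 CPM in EMC10 IPs, against 20.86, 29.9 and 18.48 CPM in EMC10 Inputs, so the groups overlapped. The log2 change was 0.63 ± 0.22 (adjusted p = 0.0241). It was 0.39 ± 0.31 with EMC6 and -0.01 ± 0.27 with EMC7, and no difference between baits passed. The EMC10 call was lost without EMC10 IP replicate 2 (0.43, adjusted p = 0.236) and without EMC10 Input replicates 1 or 3 (adjusted p = 0.0881 and 0.11), and it turned to -0.49 with library size alone.

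UQCRFS1, the Rieske iron-sulfur protein, was the lowest of complex III at -0.52 ± 0.12 over the mean (adjusted p = 0.000321). It had 69.17 and 42.72 CPM in EMC6 IPs against 98.37 and 76.65 CPM in Inputs. It had 68.31 and 79.39 CPM in EMC7 IPs against 80.51 and 100.7 CPM in Inputs, and 61.81 to 68.79 CPM in EMC10 IPs against 95.05 to 100.5 CPM in Inputs. No IP reached an Input of its line. The core protein UQCRC2, with the most counts in complex III, changed by -0.27 ± 0.10 (adjusted p = 0.0213), and UQCRB by -0.45 ± 0.16 (adjusted p = 0.0162). Both calls were lost with DESeq2 size factors and without at least 1 library.

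Complex IV had 1 member higher and 3 lower of 11 (9.09% and 27.3%, against 23.7% and 26.9% of all genes), with NDUFA4 counted here because it is a complex IV subunit despite its name. COX4I1 encodes the ubiquitous isoform of subunit IV, which spans the membrane and binds ATP, and it had the most counts of this complex. COX4I1 had 366.4 and 397.6 CPM in EMC6 IPs, against 276.3 and 264.8 CPM in EMC6 Inputs. It had 522 and 511.8 CPM in EMC7 IPs, against 352.1 and 355.8 CPM in EMC7 Inputs. It had 456.5, 474.8 and 514.9 CPM in EMC10 IPs, against 319.4, 349.5 and 372.6 CPM in EMC10 Inputs. The IPs lay above the Inputs within each line, and the EMC6 libraries were lower than those of the other lines in both fractions.

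The log2 change of COX4I1 was 0.50 ± 0.17 with EMC6 (adjusted p = 0.0214), 0.55 ± 0.16 with EMC7 (adjusted p = 0.00700) and 0.47 ± 0.13 with EMC10 (adjusted p = 0.00409). Over the mean it was 0.51 ± 0.09 (adjusted p = 7.72e-06), between 0.41 and 0.59 in the 7 pairs. The direction turned with library size alone (-0.44 over the mean), and scaled on ER luminal messages it was 0.005 (adjusted p = 0.964). In the EMC6 line the call was lost without IP replicate 2 (adjusted p = 0.203). In the EMC7 line it was lost without IP replicate 1, Input replicate 1 or Input replicate 2 (adjusted p = 0.0764, 0.0692 and 0.0614). COX4I1 lies on chromosome 16 from 85799695 to 85807068 (GRCh38.p14), 150 bases from EMC8, an EMC subunit gene; the EMC8 message was at -0.10 ± 0.22 over the mean (adjusted p = 0.729).

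COX7B and COX6C, small single-pass subunits of complex IV, were lower over the mean, at -0.47 ± 0.12 (adjusted p = 0.00153) and -0.44 ± 0.12 (adjusted p = 0.00202). COX7B had 67.3 and 59.15 CPM in EMC6 IPs against 91.86 and 74.25 CPM in Inputs, 39.55 and 33.43 CPM in EMC7 IPs against 47.7 and 61.77 CPM in Inputs, and 31.35 to 39.17 CPM in EMC10 IPs against 44.47 to 53.32 CPM in Inputs. The IPs lay below the Inputs within each line, although COX7B passed in no single line without the replicate block. In the blocked fit it passed with EMC7 (-0.54, adjusted p = 0.0154) and EMC10 (-0.42, adjusted p = 0.0292). COX6B1 was at -0.30 ± 0.11 (adjusted p = 0.0174), a call lost with DESeq2 size factors (adjusted p = 0.107) and without any of 4 libraries: EMC6 IP replicate 2 (adjusted p = 0.134), EMC6 Input replicate 1 (0.0518), EMC7 IP replicate 1 (0.0657) and EMC7 Input replicate 1 (0.0513).

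ATP synthase consists of the F1 head in the matrix, where α and β subunits make ATP around the rotating γ subunit, the Fo part in the membrane and a peripheral stalk that joins them. Of its 18 tested members 6 were lower over the mean of the 3 lines, 33.3% against 26.9% of all genes, and the other 12 did not pass. The median of complex V lay below that of all genes in 7 of 7 pairs, by -0.205 ± 0.0987 on average (SD). In the fit it differed by -0.06 from the all-gene median when the lines were averaged, -0.19 with EMC6, -0.03 with EMC7 and -0.11 with EMC10. Cytosolic ribosomal protein messages, made on free ribosomes, also lay below in 7 of 7 pairs, by -0.308 ± 0.0409, with 64 of 78 lower over the mean. Their summed level was 13880 to 18630 CPM in IPs and 18470 to 25290 CPM in Inputs, with 4 to 7 of the 86 listed genes at 0 in a group; its part in the shift of complex V was not tested.

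ATP5F1A, the α subunit, had 271.1 and 184 CPM in EMC6 IPs, against 451 and 332.3 CPM in EMC6 Inputs. It had 235.1 and 249.7 CPM in EMC7 IPs, against 346.9 and 387.3 CPM in EMC7 Inputs. It had 244.5, 181 and 247.4 CPM in EMC10 IPs, against 402, 365.8 and 348.2 CPM in EMC10 Inputs. Each IP lay below each Input of all lines. The log2 change was -0.80 ± 0.20 with EMC6 (adjusted p = 0.00209), -0.60 ± 0.19 with EMC7 (adjusted p = 0.0140) and -0.73 ± 0.16 with EMC10 (adjusted p = 0.000290), and -0.71 ± 0.11 over the mean (adjusted p = 5.18e-07). The EMC6 call was lost without EMC6 IP replicate 2 (-0.54, adjusted p = 0.142). The EMC7 call was lost without IP replicate 1, IP replicate 2 or Input replicate 2 (adjusted p = 0.115, 0.0565 and 0.109). There are 7 pseudogenes that carry its name, with which reads could be shared.

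ATP5F1C, the γ subunit, had 101 and 100.8 CPM in EMC6 IPs, against 175 and 143.7 CPM in EMC6 Inputs. It had 78.38 and 77.3 CPM in EMC7 IPs, against 108.7 and 120.3 CPM in EMC7 Inputs, and 69.86, 63.6 and 76.43 CPM in EMC10 IPs, against 114.3, 102.4 and 105.5 CPM in EMC10 Inputs. The IPs lay below the Inputs within each line, and the EMC6 libraries were the highest of each fraction. The changes were -0.66 ± 0.19 with EMC6 (adjusted p = 0.00894), -0.55 ± 0.19 with EMC7 (adjusted p = 0.0207) and -0.62 ± 0.16 with EMC10 (adjusted p = 0.00190), and -0.61 ± 0.10 over the mean. The EMC6 call was lost without IP replicate 1, IP replicate 2 or Input replicate 1 (adjusted p = 0.0774, 0.0911 and 0.0873). The EMC7 call was lost without IP replicate 1, IP replicate 2 or Input replicate 2 (adjusted p = 0.115, 0.106 and 0.130).

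ATP5F1B, the catalytic β subunit, had the most counts of all 77 members and passed with EMC10 (-0.49 ± 0.13, adjusted p = 0.00439). With EMC6 and EMC7 it was at -0.30 (adjusted p = 0.190) and -0.41 (adjusted p = 0.0567), and in the blocked fit it passed in both (adjusted p = 0.00327 and 5.82e-06). It overlaps BAZ2A, with which reads may be shared. The ε subunit ATP5F1E was the highest of complex V over the mean of the lines at 0.18 ± 0.20 (adjusted p = 0.475).

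ATP5PD, subunit d of the peripheral stalk, was the lowest of complex V over the mean of the lines and with EMC6, while with EMC7 and EMC10 ATP5F1A was lower. It had 28.04 and 33.96 CPM in EMC6 IPs, against 87.88 and 64.33 CPM in EMC6 Inputs. It had 39.55 and 32.38 CPM in EMC7 IPs against 48.4 and 55.01 CPM in Inputs, and 31.35 to 34.93 CPM in EMC10 IPs against 46.83 to 51.93 CPM in Inputs. The IPs of the lines lay close together, and the EMC6 Inputs stood above the other Inputs. The change was -1.26 ± 0.25 with EMC6 (adjusted p = 0.000120), -0.50 ± 0.22 with EMC7 (adjusted p = 0.0842) and -0.54 ± 0.19 with EMC10 (adjusted p = 0.0248). The EMC10 call was lost without EMC10 IP replicate 2 (adjusted p = 0.105), EMC10 IP replicate 3 (0.0644) or EMC10 Input replicate 1 (0.0815), and with DESeq2 size factors (0.0575). In the blocked fit ATP5PD passed with EMC7 (-0.49, adjusted p = 0.0329). The gene overlaps KCTD2. ATP5PO, the stalk subunit that confers oligomycin sensitivity, was at -0.42 ± 0.12 over the mean (adjusted p = 0.00454). ATP5MC3, a gene for the c subunit of the rotor ring, was at -0.34 ± 0.11 (adjusted p = 0.0114), a call lost with DESeq2 size factors (adjusted p = 0.0688) and without EMC6 IP replicate 2 (adjusted p = 0.0762).

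**Figure D3:**
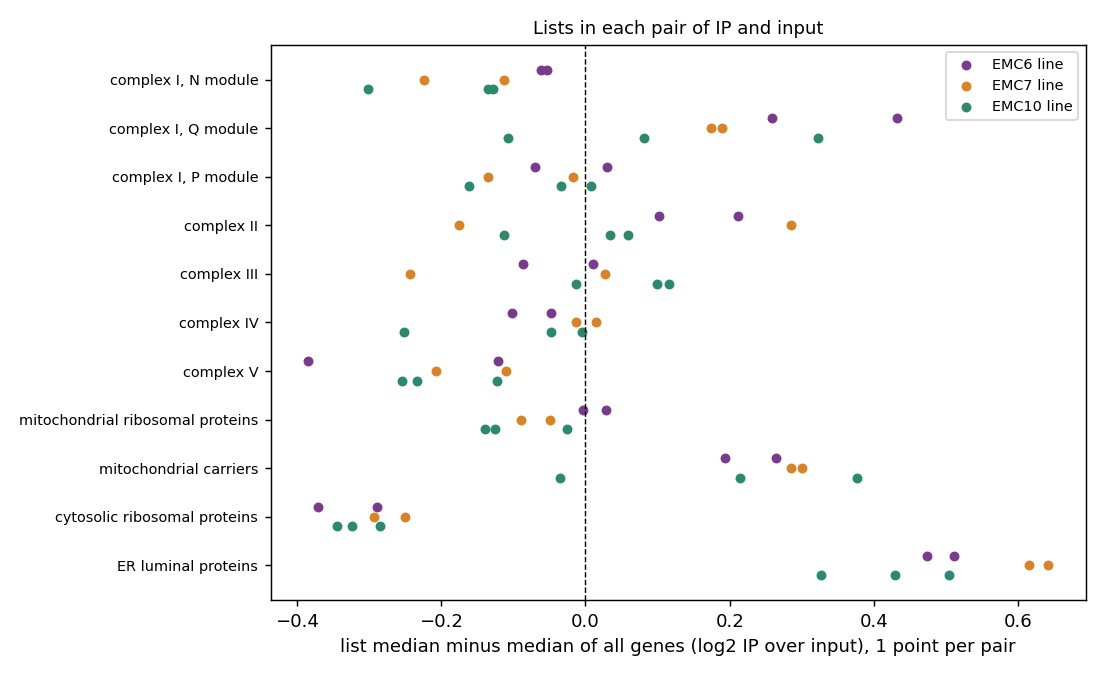
Median log2 ratio of IP over Input of each list minus the median of all genes (horizontal axis), with 1 point for each of the 7 pairs, coloured by line. Complex V, the N module and the cytosolic ribosomal proteins lie left of 0 in 7 of 7 pairs, and the ER luminal proteins lie right of 0 in 7 of 7.

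The change of IP over Input was then compared between baits, with the difference itself as the test. Between EMC6 and EMC7 0 of 77 members passed in either direction (0.19% and 0.328% of all genes), between EMC6 and EMC10 0 (0.0634% and 0.0106%), and between EMC7 and EMC10 0 (0.148% and 0.0106%). At an unadjusted p under 0.05 there were 0 higher and 2 lower, 0 and 1, and 1 and 2, and the DESeq2 test also called 0 in each. The smallest adjusted p was 0.454 for ATP5PD (-0.76 ± 0.34, EMC6 minus EMC7), 0.761 for ATP5PD (-0.73 ± 0.32, EMC6 minus EMC10) and 0.417 for NDUFA10 (-0.68 ± 0.25, EMC7 minus EMC10). In the fit with the replicate block NDUFA10, an accessory subunit of complex I, passed for EMC7 minus EMC10 (-0.67 ± 0.21, adjusted p = 0.0433). For this difference the blocked fit called 3.68% of all genes higher and 0.698% lower, more than the fit without the block. NDUFA10 had 56.09 and 43.87 CPM in EMC7 IPs against 72.6 and 81.07 CPM in Inputs, and 66.29 to 83.12 CPM in EMC10 IPs against 66.76 to 70.72 CPM in Inputs. The median SE of these differences over the members was 0.278 to 0.314. Even the differences of -0.76 (ATP5PD) and -0.68 (NDUFA10) did not pass without the block, so smaller differences between baits are not excluded.

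Before scaling, the members took a smaller share of gene counts in IP than in Input. With bait messages left out, the share was 0.692% ± 0.0932 in EMC6 IPs and 1.158% ± 0.13 in EMC6 Inputs (SD, n = 2 each), 0.493% ± 0.0216 in EMC7 IPs and 0.890% ± 0.0481 in EMC7 Inputs (n = 2 each), and 0.519% ± 0.0179 in EMC10 IPs and 0.916% ± 0.0186 in EMC10 Inputs (n = 3 each). The ranges did not overlap in any line. After TMM scaling the summed level of the members was 6902 ± 506 CPM in EMC6 IPs and 7173 ± 676 CPM in EMC6 Inputs, 6642 ± 40.7 and 6901 ± 252 CPM in EMC7 IPs and Inputs, and 6285 ± 251 and 6830 ± 105 CPM in EMC10 IPs and Inputs. On that scale the EMC6 groups overlapped, whereas the EMC7 and EMC10 IPs lay below their Inputs. A share cannot tell less of these messages from more of others. With library size alone the median member stood at -0.831 with EMC6, -1.18 with EMC7 and -1.32 with EMC10. The median of all genes stood at -0.833, -1.15 and -1.28, close to that of the members in each line.

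**Figure D4:**
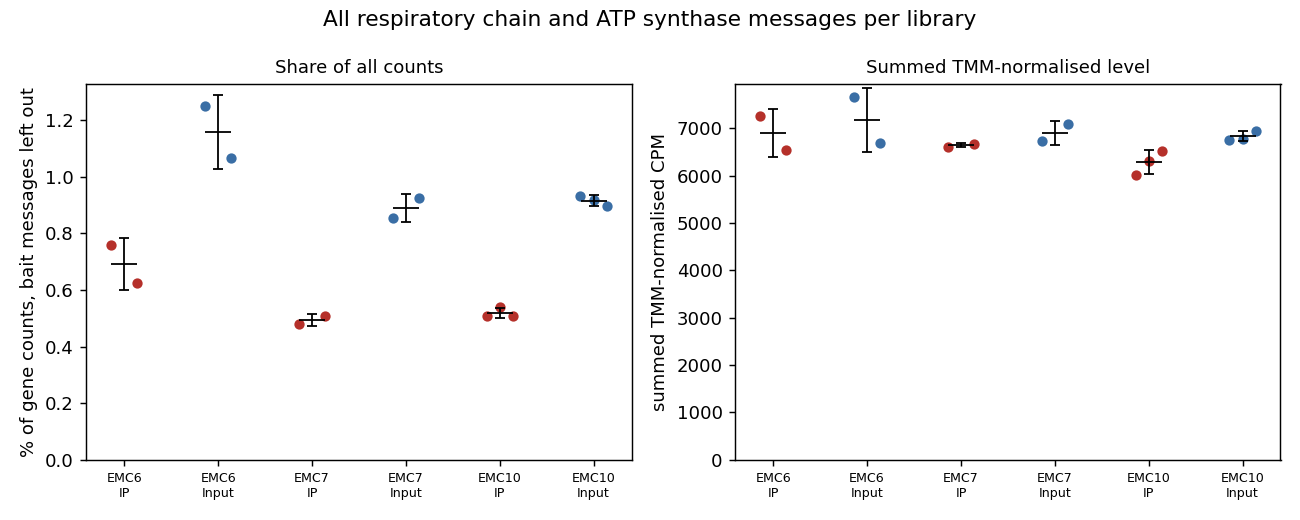
Summed share of gene counts with bait messages left out (left, percent) and summed TMM-normalised level (right, CPM) of all members, with a point per library and bars for the mean ± SD, IP left of Input in each line. The share is lower in IP in each line (0.692% against 1.158% with EMC6), and the TMM-normalised sums differ less.

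The Inputs were compared to see how far the starting material held these messages alike. EMC6 Inputs had 14 members higher and 7 lower than the mean of the EMC7 and EMC10 Inputs, against 15.3% and 21.8% of all genes. Line and preparation cannot be told apart here. Of the ER luminal messages in the same libraries, 52 of 54 were lower in EMC6 Inputs, with a median log2 change of -0.999, and their summed level was 25720 to 27340 CPM in EMC6 Inputs, against 52550 to 61850 CPM in the other Inputs. Rows that name no gene took 11.51% and 12.51% of the counts in EMC6 Inputs, against 4.675% to 5.147% in the others. The part of either in the changes of the members was not tested.

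The 14 members higher in EMC6 Inputs spread over complexes I, IV and V. COX7C, a small membrane subunit of complex IV, led with 131.6 and 98.55 CPM in EMC6 Inputs, against 52.35 to 68.53 CPM in the other Inputs, and a log2 change of 0.91 ± 0.15 (adjusted p = 6.41e-06). In complex IV COX7B (0.69) and COX8A (0.46) were also higher. In complex V these were ATP5MPL (0.81), ATP5PD (0.60), ATP5F1C (0.52), ATP5PO (0.47) and ATP5MC3 (0.40), and in complex I NDUFS6 (0.65), NDUFA13 (0.59), NDUFA12 (0.54), NDUFV1 (0.50), NDUFS3 (0.47) and NDUFA1 (0.44). NDUFS6 overlaps MRPL36.

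The 7 lower members were 6 of complex I and COX4I1. NDUFB10, a membrane-arm subunit, had 55.33 and 60.22 CPM in EMC6 Inputs, against 94.58 to 113 CPM in the other Inputs, a change of -0.85 ± 0.15 (adjusted p = 2.55e-05). The others were NDUFB9 (-0.69), NDUFA9 (-0.63), NDUFA11 (-0.62), NDUFB11 (-0.49), NDUFC2 (-0.45) and COX4I1 (-0.37). NDUFA9 and COX4I1, the members that rose in IP with every bait, were thus lower in EMC6 Inputs than in the others. All 7 turned positive when scaled on ER luminal messages, which gave 76 higher and 0 lower, and library size alone gave 42 and 1. Those scalings called 77.3% of all genes higher and 1.68% lower, and 36.3% and 15.4%, and the ER luminal scaling moved the median of all genes to 1.20. Both counts moved when single Input libraries were left out, and the share of all genes did not always move the same way. The log2 change of COX7C was 0.669 without EMC6 Input replicate 1 and 1.05 without EMC6 Input replicate 2. That of ATP5MC3 was 0.135 and 0.563 in these settings. Between EMC7 and EMC10 Inputs 0 members passed in either direction (0.0106% of all genes in each), with 0 at an unadjusted p under 0.05 and 0 in the DESeq2 test.

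**Figure D5:**
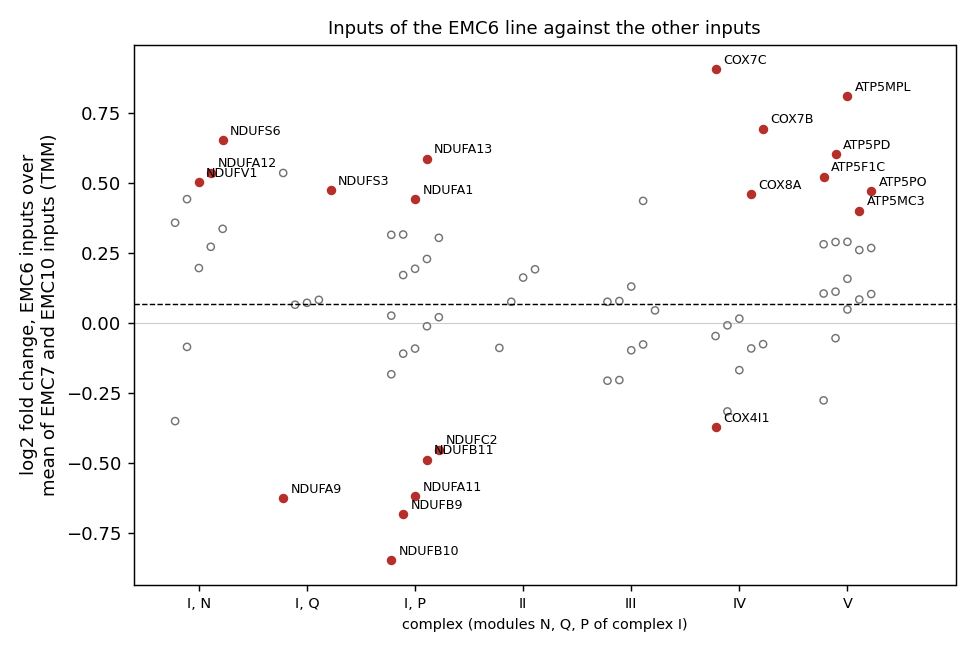
Log2 fold change of EMC6 Inputs over the mean of the EMC7 and EMC10 Inputs (TMM scaling, vertical axis) for the 77 members by complex, with filled points for those that passed the test and the dashed line at the median of all genes (0.07). COX7C is highest at 0.91 and NDUFB10 lowest at -0.85.

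Assembly factors build the complexes without staying in them, and many sit in the inner membrane. Of 56 listed, 51 were tested, and over the mean of the 3 lines 10 were higher and 5 lower (19.6% and 9.8%, against 23.7% and 26.9% of all genes). TIMMDC1, a membrane protein that helps to build complex I, rose by 1.33 ± 0.13 (adjusted p = 4.95e-11), close to NDUFA9. UQCC3, a complex III factor, was at 0.94 ± 0.15 (adjusted p = 1.11e-06) and COX18, an insertase for a complex IV subunit, at 0.87 ± 0.25 (adjusted p = 0.00430). The others were TMEM186 (0.79), PET100 (0.59), SURF1 (0.50), TMEM242 (0.48), COA1 (0.46), UQCC1 (0.34) and SCO1 (0.29). The COX18 call was lost without EMC6 IP replicate 2 (0.44, adjusted p = 0.386), and those of COA1, SURF1, UQCC1 and SCO1 were each lost without at least 1 library. With library size alone TIMMDC1 stayed above 0 and the other 9 turned to below 0.

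The lowest assembly factors that passed were COX17, a copper chaperone (-0.87), COA3 (-0.77), LRPPRC, which stabilises mitochondrial messages (-0.67 ± 0.10, adjusted p = 6.05e-07), and HIGD1A (-0.53). Apart from LRPPRC these calls were lost without at least 1 library and with DESeq2 size factors (adjusted p = 0.0522 for COX17, 0.0524 for COA3 and 0.100 for HIGD1A). Enzymes of the TCA cycle, in the matrix except for complex II, had 7 lower of 14 (50%, against 26.9% of all genes) and the others did not pass. The import machinery had 6 higher and 5 lower of 24 (25% and 20.8%), near the 23.7% and 26.9% of all genes, and mitochondrial ribosomal proteins 3 higher and 11 lower of 74 (4.05% and 14.9%). Mitochondrial carriers, multi-pass proteins of the inner membrane, had 5 higher and 1 lower of 26 (19.2% and 3.85%), and their median exceeded the all-gene median in 6 of 7 pairs, by 0.228 ± 0.130 on average (SD). ER luminal proteins, which are made at the ER, had 31 higher of 54 (57.4%, against 23.7% of all genes) and the others did not pass.

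What the annotation adds concerns the counting. Of the 77 members 74 were matched to the RefSeq table of GRCh38.p14 by symbol and 2 by an older symbol, and NDUFA4 was not matched. The members lie on 22 chromosomes. There are 16 that overlap another counted gene and 48 with at least 1 pseudogene that carries their symbol, and for both the counts may be shared. The 10 symbols under the minimum had at most 1 count in total, and the lowest analysed member had 581. NDUFA3, NDUFA6, COX6A2, COX7A1, COX7B2, COX8C and ATP5MGL were listed at 0, and COX4I2, COX6B2 and UQCRHL had 1 count. NDUFA3 and NDUFA6 encode subunits found in complex I of all tissues, and since the annotation used for counting is not given, a listed 0 does not show that the message was absent.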

How the data were processed

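The authors deposited whole-number counts of ribosome footprints per gene symbol for 14 libraries, not normalized. Per the submitters' processing notes, the build was hg38 and the tools were TopHat2 2.1.0, Bowtie2 2.2.6 and cutadapt 4.1. Strand setting, annotation and duplicate removal: not given in the sources used here. The 5 rows that name no gene (2.755% to 12.51% of counts) were left out. Replicates of a group differed beyond sampling noise (chi-square over its degrees of freedom was 1.91 to 7.74).

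A single model of all 14 libraries, fitted with edgeR 4.0.16 under R 4.3.3 with limma 3.58.1, had a mean for each line and fraction, TMM scaling, filterByExpr and a robust quasi-likelihood test, adjusted over all 9458 genes at 0.05. CPM, fold changes and log2 values were computed from the deposited counts. The mean of the 3 lines weights lines equally. Each IP shares its batch number in the labels with the Input from which it was prepared, which pairs the libraries. Deviations from group means of same-numbered libraries correlated at 0.239 (EMC6), 0.0673 (EMC7) and 0.0302 to 0.0882 (EMC10). Alternatives were DESeq2 1.42.0, other scalings and filters, the replicate block, the libraries of 1 line and leaving out each library; a fit to Inputs alone was added after seeing the data. The steps were tested on simulated data.

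The members and lists were chosen with earlier results of these data known. Named are NDUFA9 and members higher in a line or in the mean, lower in all lines or different between Inputs. The highest, lowest and most counted member per complex are named too. Of the assembly factors, those called higher and the lowest of those called lower are named. Other members, lower over the mean, were named after their values were seen. No set test was run.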

Additional observations from a re-analysis of the deposited data

How the results depend on the processing

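The scaling and the small number of libraries limit these results. Members higher and lower numbered 1 and 62 in the EMC6 line, 0 and 73 in the EMC7 line, 0 and 76 in the EMC10 line and 1 and 76 over the mean with library size alone, and 1 and 22, 1 and 65, 1 and 49, and 1 and 67 when scaled on ER luminal messages. Of all genes, library size alone called 45.7%, 63.8% and 75.8% lower with EMC6, EMC7 and EMC10, and the ER luminal scaling 23%, 50.3% and 38.7%. With DESeq2 size factors 3 (EMC6), 9 (EMC10) and 13 (mean) were lower, against 5.06%, 10% and 19.9% of all genes. With the DESeq2 test 3, 3, 7 and 13 were lower with EMC6, EMC7, EMC10 and over the mean. That test called 3.55%, 5.71%, 7.86% and 17.1% of all genes lower. For EMC7 it gave 4 higher, against 20.3% of all genes. The replicate block gave 5 higher in each line and 15 lower with EMC7. For EMC7 minus EMC10 it gave 1 lower, against 0.698% of all genes. The block changed no other count by over 1.5 times. Fits to the libraries of 1 line gave 1 higher and 1 lower with EMC6, 5 higher with EMC7 and 6 higher with EMC10. These fits called 13.2% of all genes higher and 1.52% lower with EMC6, 24.6% higher with EMC7 and 24.4% higher with EMC10. For EMC6 minus EMC10 library size alone gave 1 higher, and the share of all genes was not taken for that difference. For the Inputs the counts were 42 and 1 with library size alone and 76 and 0 scaled on ER luminal messages. Of all genes these scalings called 36.3% and 15.4%, and 77.3% and 1.68%. The DESeq2 test gave 8 higher, against 7.54% of all genes.

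Leaving out each library in turn gave 1 to 5 higher and 3 to 8 lower (EMC6), 1 to 2 and 2 to 10 (EMC7), 2 to 4 and 8 to 21 (EMC10), 4 to 7 and 17 to 29 (mean), and 5 to 19 and 4 to 8 (Inputs). Where this leaves a group with 1 library, that library is assumed to vary like the others. The share of all genes that passed also moved with the library left out, and not always in the same direction as the count of members. NDUFA9 passed in each line and over the mean without each library.

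With library size alone these log2 changes over the mean turned to below 0: ATP5F1E -0.77, COX4I1 -0.44, CYC1 -0.61, NDUFA1 -0.68, NDUFA13 -0.55, NDUFB11 -0.68, SDHA -0.89, SDHD -0.86, UQCRH -0.62, COA1 -0.50, COX18 -0.0797, PET100 -0.35, SCO1 -0.65, SURF1 -0.45, TMEM186 -0.16, TMEM242 -0.47, UQCC1 -0.61 and UQCC3 -0.00835. So did COX4I1 by line (-0.21 with EMC6, -0.47 with EMC7, -0.64 with EMC10), NDUFA13 with EMC6 (-0.20) and UQCRH with EMC10 (-0.49). Scaled on ER luminal messages, CYC1 (-0.16), NDUFA1 (-0.23), NDUFA13 (-0.11), NDUFB11 (-0.23), SDHA (-0.44), SDHD (-0.41), COA1 (-0.0406), SCO1 (-0.20), SURF1 (-0.00294), TMEM242 (-0.0192), UQCC1 (-0.17) and, with EMC7, COX4I1 (-0.21) lay below 0. In the Inputs COX4I1 (0.76), NDUFA11 (0.51), NDUFA9 (0.51), NDUFB10 (0.28), NDUFB11 (0.64), NDUFB9 (0.45) and NDUFC2 (0.68) lay above 0. Both scalings shift all genes together. Sequence features of the proteins, also planned, were not run because no protein table was used.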
